A study of Mus musculus with 12 samples.

Results

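The genes described here are 38 genes of the extracellular matrix, of the integrins that bind it and of epithelial to mesenchymal transition, measured by RNA-seq in type II alveolar epithelial (AT2) cells. They were taken by symbol from a list of collagens, laminins, integrins, matricellular proteins, matrix enzymes and transition factors, a list drawn up with earlier results of these data known. All 38 were found among the 55450 genes counted, and all 38 passed the filter on low counts that left 20612 genes for testing. The lowest count of any of them in a library was 23.

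AT2 cells came from AhRfl/fl mice and from Sftpc-Cre;AhRfl/fl mice, and both genotypes carried the floxed Ahr allele on a C57BL/6 background at 6 to 8 weeks of age. In Sftpc-Cre;AhRfl/fl mice, Cre recombinase is made from the locus of surfactant protein C, a gene of AT2 cells. The isolated cells were kept on plates coated with collagen I and were given PBS or cockroach extract (CRE) at 50 µg/ml for 24 h. Each of the 4 groups had 3 libraries, numbered 1 to 3, with total counts between 68878065 and 80935797. The labels do not say whether a number marks 1 animal, a pool of animals or a batch of cells, so the p-values measure the spread between these libraries. The CRE and PBS libraries of 1 number within a genotype deviated together from their group means, and such a pair is called a culture here. The name stands for a shared number within a genotype and not for a known common origin of the cells.

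The alveolar epithelium rests on a basement membrane of type IV collagen and laminins, while fibronectin and the interstitial collagens fill the space below it. Integrins are pairs of alpha and beta chains that tie cells to these proteins, and the integrin made of the alpha v and beta 6 chains also releases active TGF-beta in lung epithelium. In epithelial to mesenchymal transition, factors of the Snai, Zeb and Twist families lower epithelial genes, while vimentin, N-cadherin, smooth muscle actin and fibronectin mark the mesenchymal state. AT2 cells kept on plastic or collagen are known to spread and to change their matrix genes in culture.

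Sequences are shown first for the members on which the comparisons turn, from RefSeq promoter windows on GRCm38.p6. Col4a1 and Col4a2 encode both chains of the main basement membrane collagen and are read in opposite directions from 1 shared start region. Their annotated starts overlap by 22 bases at chr8:11312805-11312826, shown here on the plus strand.
Col4a1 and Col4a2 start overlap: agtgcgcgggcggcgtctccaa
Plaur, which encodes the urokinase receptor, was the member called higher with CRE both with and without pairs when averaged over genotypes. The 250 bases before its start, chr7:24462233-24462482 on the plus strand, hold the AP-1 motif TGACTCA, in capitals, 62 bases before the start.
Plaur: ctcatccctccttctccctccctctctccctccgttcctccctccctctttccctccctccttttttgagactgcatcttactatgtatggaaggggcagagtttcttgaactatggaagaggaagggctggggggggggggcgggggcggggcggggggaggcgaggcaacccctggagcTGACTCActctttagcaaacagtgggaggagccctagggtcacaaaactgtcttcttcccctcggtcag
Timp3 and Postn were members whose levels differed between the genotypes in some of the tests, in opposite directions. The 210 bases before the start of Timp3, chr10:86300162-86300371 on the plus strand, hold 1 copy of GCGTG, the core of the element that AhR binds, in capitals. The 250 bases before the start of Postn, chr3:54360857-54361106 on the plus strand, hold no copy.
Timp3: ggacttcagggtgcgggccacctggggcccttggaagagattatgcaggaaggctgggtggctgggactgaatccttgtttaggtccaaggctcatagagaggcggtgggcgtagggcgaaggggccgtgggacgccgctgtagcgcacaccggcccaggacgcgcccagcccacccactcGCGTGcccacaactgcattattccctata
Postn: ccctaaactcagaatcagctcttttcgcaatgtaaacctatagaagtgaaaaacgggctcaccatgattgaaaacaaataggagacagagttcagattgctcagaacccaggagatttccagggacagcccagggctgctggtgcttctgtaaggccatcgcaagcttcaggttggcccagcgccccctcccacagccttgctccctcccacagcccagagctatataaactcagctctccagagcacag

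For 26 of the 38 members a window was at hand, with 35 windows in all because some genes have several starts. Windows for Cdh2, Col1a1, Fn1, Itgb4, Lama3, Lox, Loxl2, Mmp2, Snai2, Tagln, Thbs1 and Zeb1 were not used here. On either strand of the 250 bases before the start, TGACTCA was found in 3 of the 35 windows (8.57%), those of Plaur, Col6a1 and Zeb2, and in 4.46% of 32851 windows of all genes. GCGTG was found in 11 of the 35 windows (31.4%), among them those of Col4a1, Col4a2, Col6a2 and Timp3, and in 28.2% of all windows. Zeb2 is counted more than once among the 11, through overlapping windows that share a site. The E-box CAGGTG, to which the Snai and Zeb factors bind, was found in 6 of the 35 (17.1%) and in 17.2% of all. The 3 motifs cannot contain one another, and a match describes letters only.

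The members differed widely in level. On the FPKM scale, which divides by gene length and allows genes to be compared, 19 of the 38 had a mean above 10 over the 12 libraries, 12 lay between 1 and 10, and 7 lay below 1. The median of the members was 10.1 FPKM, and the median of all genes tested was 2.16 FPKM. The highest mean was that of Thbs1, 141 FPKM, the gene of thrombospondin 1, a secreted protein that binds and activates TGF-beta. Next in order were Sparc (116 FPKM), a collagen-binding matricellular protein, Plaur (91.0 FPKM) and Lamb3 (77.2 FPKM), the beta chain of laminin 332. Col4a1 (74.7 FPKM), the integrin alpha chain Itga3 (57.7 FPKM) and Col4a2 (56.4 FPKM) followed. The ranges over the 12 libraries overlapped between neighbours in this order, as for Thbs1 (105 to 168 FPKM) and Sparc (77.4 to 193 FPKM).

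Levels varied within each class. Of the 5 basement membrane genes Lama3 was lowest at 2.83 FPKM, and of the 5 integrin chains Itgav was lowest, with group means of 5.43 to 7.41 FPKM. Vim, the gene of the filament protein vimentin, had a mean of 39.4 FPKM, Acta2, smooth muscle actin, 29.6 FPKM, and Tagln, transgelin of smooth muscle, 24.8 FPKM. Of the transition factors Snai1 had the highest mean, 3.34 FPKM, and Zeb1 (0.930 FPKM), Twist1 (0.732 FPKM), Zeb2 (0.419 FPKM) and Snai2 (0.323 FPKM) were all below 1 FPKM. The N-cadherin gene Cdh2 had a mean of 0.419 FPKM, while Cdh1, the gene of epithelial E-cadherin and no member of the list, had 337 FPKM. The lowest member was Postn, the gene of periostin, at 0.152 FPKM. The plot of levels by group shows this order within each class.

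**Figure D1:**
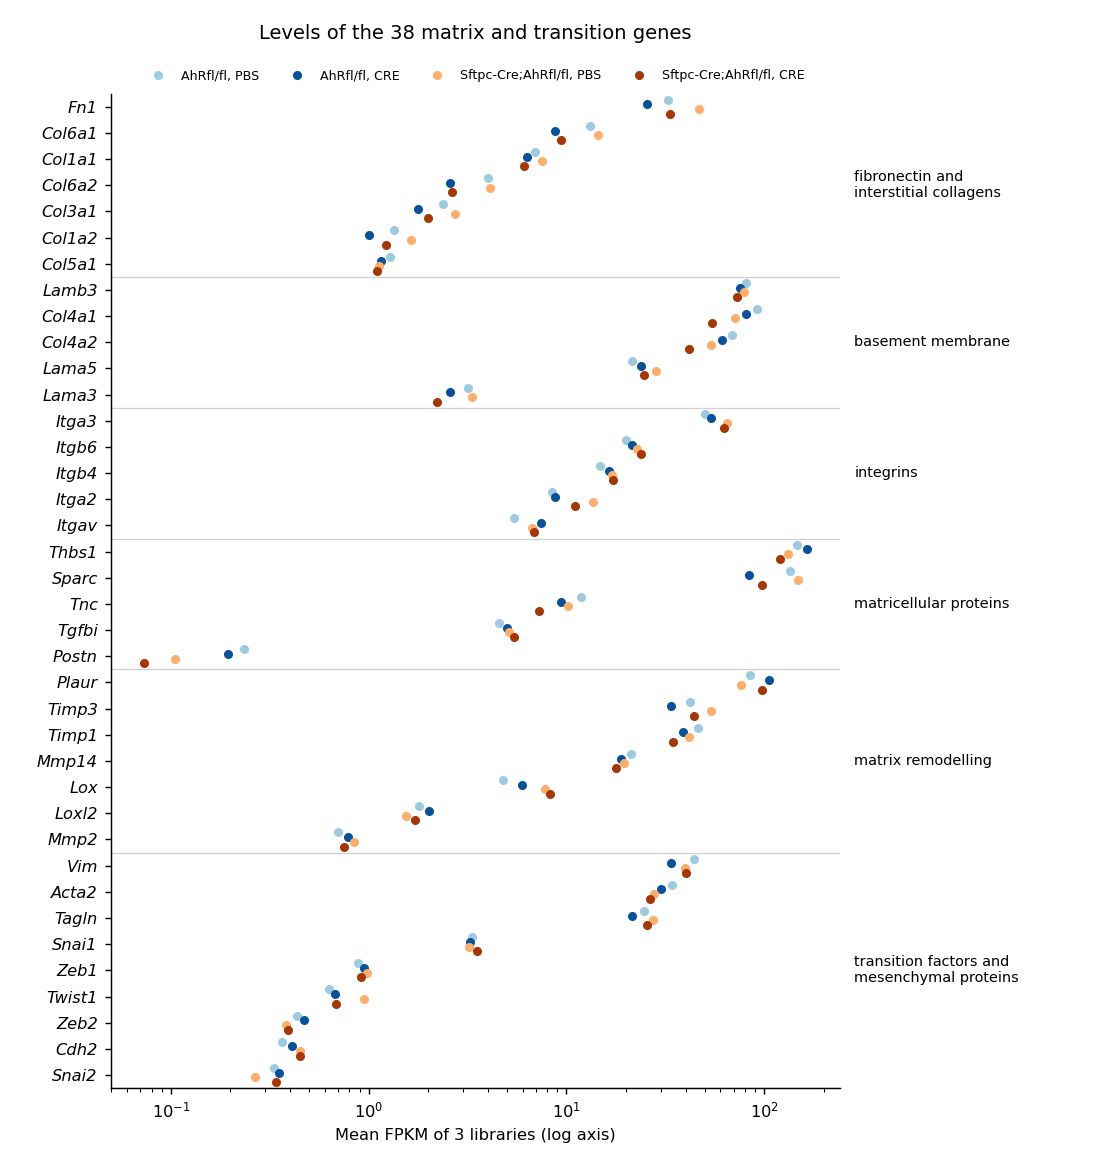
Mean FPKM of the 38 genes in the 4 groups (3 libraries each, log axis), ordered by class and by level. Col4a1, Lamb3, Thbs1, Sparc and Plaur lie near 100 FPKM, and Postn, Snai2, Zeb2 and Cdh2 lie below 1 FPKM.

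Defining markers of AT2 cells were present, beside those of airway cells. The 9 markers of AT2 cells summed to between 4414 and 9041 CPM (counts scaled to library size by TMM), led by Sftpc, and the 8 markers of AT1 cells, the flat cells of the alveolus, summed to between 1119 and 2398 CPM. In Sftpc-Cre;AhRfl/fl libraries 1, 2 and 3 the AT2 sum was 4414, 6201 and 8628 CPM with PBS. With CRE it was 4619, 6331 and 9041 CPM, and all AhRfl/fl libraries lay between 6633 and 8517 CPM. The 5 airway markers, led by the club cell gene Scgb1a1, summed to between 4009 and 8184 CPM, and Scgb1a1 had a mean of 5415 CPM where Sftpc had 5081 CPM. The count of the whole Ahr gene, which does not resolve the floxed part, was 42.9 to 56.2 CPM in AhRfl/fl and 37.7 to 51.5 CPM in Sftpc-Cre;AhRfl/fl libraries. Cyp1b1, a target of AhR, was 344 to 465 CPM in AhRfl/fl libraries and 31.7 to 63.9 CPM in Sftpc-Cre;AhRfl/fl libraries, without overlap. In such bulk samples, fewer cells of a type and less RNA per cell cannot be told apart.

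The 10 fibroblast markers, led by Dcn, the gene of decorin, and Pdgfra, a growth factor receptor, summed to between 25.6 and 94.1 CPM, and 2 of them (Col13a1 and Pi16) were at 0 in at least 1 library. This sum followed the culture and not the group. In AhRfl/fl cells it was 94.1, 25.6 and 53.1 CPM in PBS libraries 1, 2 and 3 and 92.3, 26.9 and 59.4 CPM in the CRE libraries. Sftpc-Cre;AhRfl/fl cells had 51.0, 87.6 and 26.8 CPM with PBS and 52.0, 90.4 and 33.9 CPM with CRE. Culture 2 was therefore the lowest of the AhRfl/fl cultures and the highest of the Sftpc-Cre;AhRfl/fl cultures.

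The same order of cultures, a pattern noticed in the data, was found in 15 of the 38 members (39.5%) and in 10.2% of all genes tested. These were Col1a1, Col1a2, Col3a1, Col5a1, Timp1, Mmp2, Mmp14, Lox, Loxl2, Snai1, Twist1, Vim, Cdh2, Acta2 and Tagln. None was a gene of the basement membrane, an integrin or a matricellular protein. Of the 10 fibroblast markers, 7 had it. The part of fibroblasts in the levels of these 15 members was not tested.

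Col1a2, a chain of type I collagen, was 22.0, 12.1 and 21.7 CPM in AhRfl/fl cells with PBS and 12.7, 44.0 and 10.3 CPM in Sftpc-Cre;AhRfl/fl cells with PBS. With CRE it was 17.1, 8.51 and 16.3 CPM in AhRfl/fl cells and 9.45, 33.5 and 8.33 CPM in Sftpc-Cre;AhRfl/fl cells. The highest culture mean was 4.17 times the lowest, although each culture was lower with CRE. Vim was 314, 152 and 238 CPM with PBS and 249, 92.7 and 194 CPM with CRE in AhRfl/fl cells. For Sftpc-Cre;AhRfl/fl cells Vim was 156, 311 and 151 CPM with PBS and 145, 317 and 174 CPM with CRE. For both genes culture 2 stood apart from 1 and 3, in opposite directions in the genotypes.

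The spread between cultures was as wide for other members of these classes. The ratio of the highest to the lowest culture mean was 4.81 for Twist1, a transition factor of mesodermal cells, 4.38 for Cdh2, 4.24 for Zeb2 and 3.99 for Col3a1, the collagen of reticular fibres. It was 1.10 for Itgav, the alpha v integrin chain, 1.19 for Plaur, 1.32 for Lamb3 and 1.38 for Itga3. Zeb2 is a transition factor also made by leukocytes. In AhRfl/fl culture 1 it was 18.7 and 18.6 CPM with PBS and CRE, against 4.18 to 8.09 CPM in cultures 2 and 3. In Sftpc-Cre;AhRfl/fl cultures 1, 2 and 3 Zeb2 was 9.45, 9.55 and 5.996 CPM with PBS. With CRE it was 12.7, 8.03 and 5.14 CPM, so culture 1 of that genotype was highest with CRE and not with PBS. The 9 leukocyte markers, led by Cd68 and Ptprc, were highest in culture 1 of each genotype, at 276 and 249 CPM in AhRfl/fl and at 210 and 192 CPM in Sftpc-Cre;AhRfl/fl cells with PBS and CRE, against 33.9 to 80.1 CPM elsewhere. Their part in the level of Zeb2 was not tested.

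**Figure D2:**
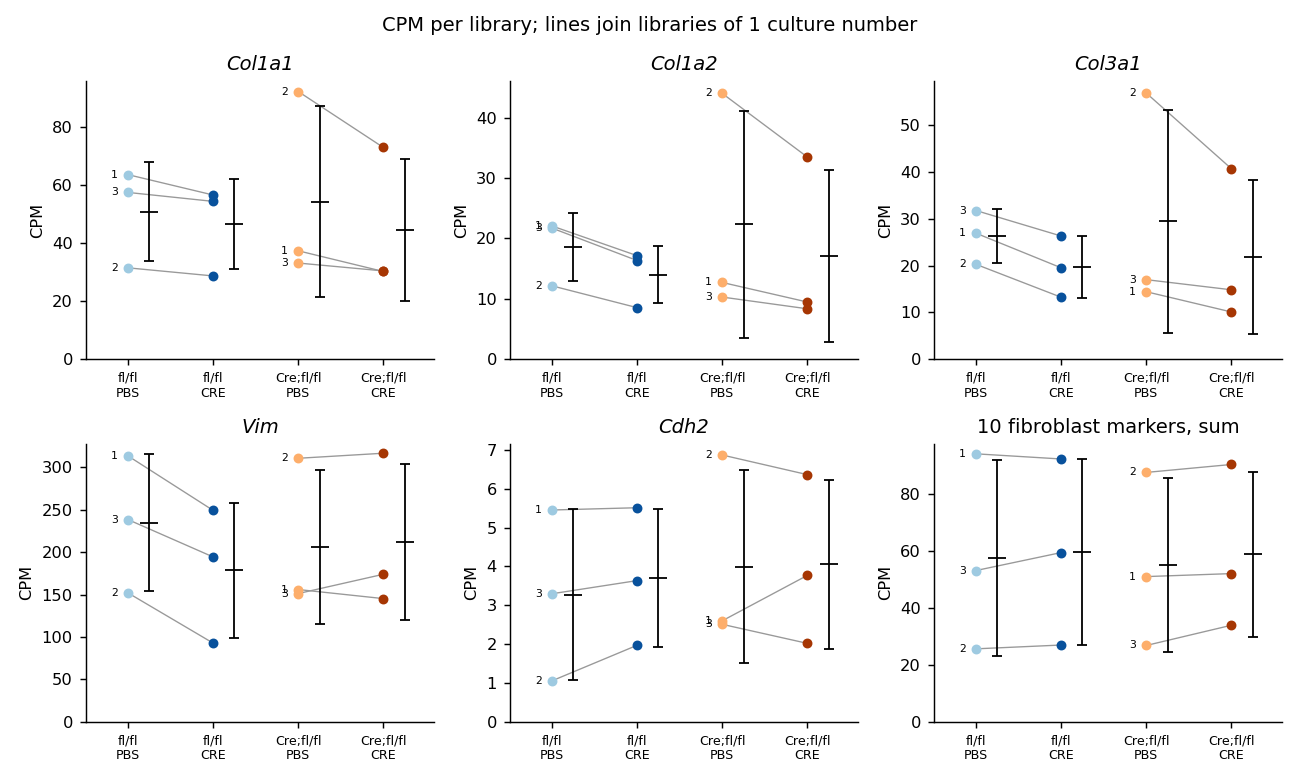
CPM of Col1a1, Col1a2, Col3a1, Vim and Cdh2 and the summed CPM of 10 fibroblast markers in each library, with lines joining the PBS and CRE libraries of 1 culture and black marks for the mean and SD of 3. Culture 2 was lowest in AhRfl/fl and highest in Sftpc-Cre;AhRfl/fl cells in each panel.

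The first comparison asked what CRE changed within each genotype. Most genes of fibronectin, the interstitial collagens and the basement membrane were lower with CRE in each culture, and Plaur was higher. No integrin or transition factor passed edgeR's test, described below. A direction shared within a class was not tested. Of the 38 members, 16 were lower with CRE in 6 of 6 cultures (42.1%), a pattern shared by 6.79% of all genes tested. These were Fn1, Col1a1, Col1a2, Col3a1, Col6a1, Col6a2, Col4a1, Col4a2, Lama3, Lamb3, Tnc, Sparc, Timp1, Timp3, Mmp14 and Tagln. Higher in 6 of 6 were 3 members (7.89%), Itgb6, Itgb4 and Plaur, and 7.57% of all genes.

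In the fit of 4 groups without cultures, edgeR's quasi-likelihood F test, with p-values adjusted by Benjamini-Hochberg and a threshold of 0.05, called no member in AhRfl/fl cells, where 4 had an unadjusted p under 0.05 and 0.233% of all genes were called. It called no member in Sftpc-Cre;AhRfl/fl cells, where 6 had an unadjusted p under 0.05 and 0.262% of all genes were called. limma-trend with the same adjustment also called 0 in each, beside 0.243% and 0.296% of all genes. DESeq2 called more genes throughout, with shares given here of the genes for which it returned an adjusted p. It called 3 members in AhRfl/fl cells (Sparc, Itgav and Plaur), beside 2.92% of all genes, and 2 in Sftpc-Cre;AhRfl/fl cells (Col4a1 and Plaur), beside 1.58%. Averaged over both genotypes, edgeR called 1 member, Plaur, and 1.1% of all genes. In that comparison limma-trend called Plaur and 1.17% of all genes, and DESeq2 called Sparc, Timp3, Col4a1 and Plaur and 4.83%. By the study's rule, an unadjusted limma-trend p below 0.05 with an absolute log2 fold change above 0.5, Sparc was called in AhRfl/fl cells and Sparc and Lama3 in Sftpc-Cre;AhRfl/fl cells. The rule called 4.11% and 3.38% of all genes in these comparisons.

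With the 6 cultures as pairs, edgeR with Benjamini-Hochberg adjustment called 5 members lower in AhRfl/fl cells (13.2%), where 1.76% of all genes were called lower. They were Col1a2, Col6a1, Col6a2, Sparc and Timp3, and the only member called higher was Plaur, beside 1.87% of all genes. In Sftpc-Cre;AhRfl/fl cells 7 members were called lower (18.4%), beside 0.796% of all genes. They were Fn1, Col6a1, Col6a2, Col4a2, Lama3, Tnc and Sparc, and Plaur alone was called higher, beside 1.33% of all genes. Averaged over genotypes, 13 members were called lower (34.2%) and 2 higher, Lox and Plaur (5.26%), where 3.11% and 3.47% of all genes were called. The median paired log2 fold change was -0.11 over the 38 members and -0.000987 over all genes tested.

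**Figure D3:**
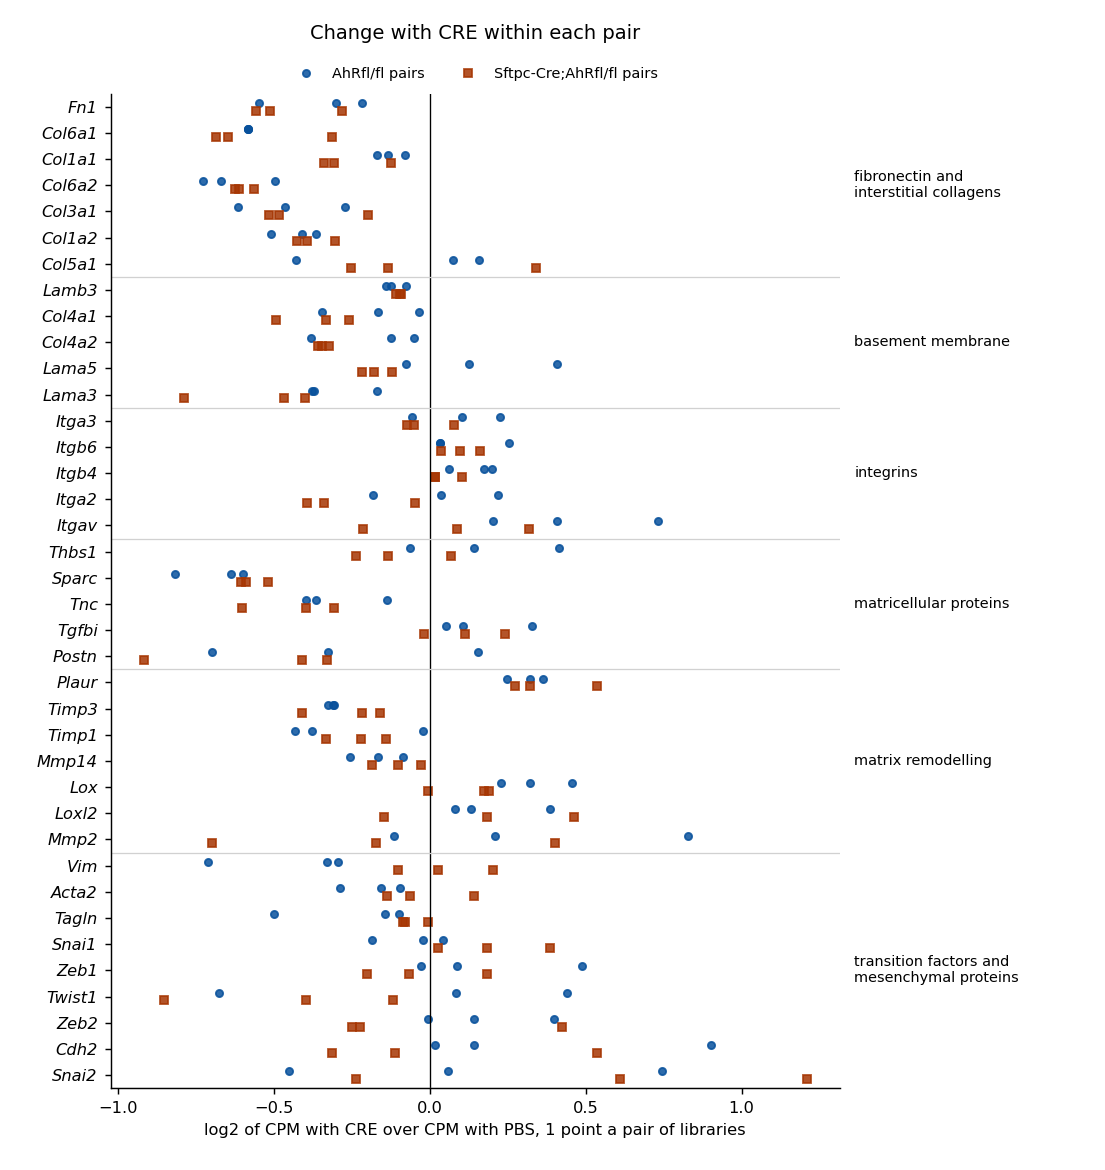
Log2 of CPM with CRE over CPM with PBS in each of 6 cultures (circles AhRfl/fl, squares Sftpc-Cre;AhRfl/fl) for the 38 genes by class. For 16 genes the points lie left of 0 in 6 of 6 cultures, and for Itgb6, Itgb4 and Plaur they lie right of it.

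Fibronectin and the interstitial collagens held the largest group of calls, with 6 of 7 lower in the paired fit averaged over genotypes and a median log2 fold change of -0.40. Fn1, the gene of fibronectin, was 399, 344 and 537 CPM with PBS and 273, 296 and 435 CPM with CRE in AhRfl/fl cells. Libraries of Sftpc-Cre;AhRfl/fl cells had 739.7, 602 and 449.7 CPM with PBS and 518, 409 and 369.6 CPM with CRE. Each culture fell, by 14.0% to 32.1%, while the groups of 3 overlapped in both genotypes. The paired log2 fold change was -0.40 (SE 0.05, edgeR, Benjamini-Hochberg adjusted p = 0.00721 with pairs and 0.391 without).

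Col6a1 and Col6a2 encode chains of type VI collagen, the beaded filaments that link basement membrane and stroma, and they moved together. Col6a1 was 61.2, 70.0 and 62.1 CPM with PBS and 40.9, 46.7 and 41.4 CPM with CRE in AhRfl/fl cells, without overlap. The Sftpc-Cre;AhRfl/fl values were 39.0, 106 and 63.3 CPM with PBS and 31.4, 68.0 and 39.3 CPM with CRE, where culture 2 was highest under both. The paired log2 fold change of Col6a1 was -0.57 (SE 0.06, edgeR, Benjamini-Hochberg adjusted p = 0.00215 with pairs and 0.380 without). For Col6a2, which fell by 29.1% to 39.7% in the 6 cultures, it was -0.62 (SE 0.05, edgeR, Benjamini-Hochberg adjusted p = 8.25e-04 with pairs and 0.480 without).

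The fibrillar collagens fell less evenly. Col1a2 had a paired log2 fold change of -0.40 (SE 0.05, edgeR, Benjamini-Hochberg adjusted p = 0.00565), and Col3a1 had one of -0.42 (SE 0.07, adjusted p = 0.0146). Col1a1, the other chain of type I collagen, fell by 5.37% to 20.9% in the 6 cultures, with a paired log2 fold change of -0.19 (SE 0.04, edgeR, Benjamini-Hochberg adjusted p = 0.0463). Col5a1, a chain of the type V collagen that starts fibrils, was lower with CRE in 3 of 6 cultures and had a paired log2 fold change of -0.04 (SE 0.11). In the same libraries the sum of the 10 fibroblast markers was higher with CRE in 5 of 6 cultures, and 0 of these markers were called in either direction with pairs. The sum of the 4 mesothelial markers, led by Msln, and that of the 7 markers of smooth muscle and pericytes were lower with CRE in 6 of 6 cultures. So were the sums of the AT1, endothelial and airway markers, and the sum of the 9 leukocyte markers was lower in 5 of 6. Single markers were less even. With pairs, 5 of 8 AT1, 2 of 4 mesothelial, 1 of 7 smooth muscle and pericyte and 1 of 8 endothelial markers were called lower. Of the airway markers, whose sum was mostly Scgb1a1, 1 was called lower and 1 higher. The part of these cells in the change of the collagens was not tested.

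Of the 5 basement membrane genes, 4 were called lower in the paired fit averaged over genotypes. Lama3, the alpha chain of laminin 332, was 28.2, 37.1 and 50.5 CPM with PBS and 21.7, 33.0 and 39.0 CPM with CRE in AhRfl/fl cells. In Sftpc-Cre;AhRfl/fl cells Lama3 was 40.7, 43.1 and 33.6 CPM with PBS and 29.4, 24.9 and 25.5 CPM with CRE, without overlap. The paired log2 fold change was -0.43 (SE 0.06, edgeR, Benjamini-Hochberg adjusted p = 0.0112). Lamb3, its partner chain, changed by a much smaller size, with a log2 fold change of -0.11 (SE 0.02, edgeR, Benjamini-Hochberg adjusted p = 0.0346), and fell by 5.09% to 9.34% in each culture. Lama5, the alpha chain of the laminins of mature alveoli, was higher with CRE in 2 AhRfl/fl cultures and lower in the other 4, with a log2 fold change of -0.01 (SE 0.06).

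Col4a1 and Col4a2 fell with CRE by log2 fold changes of -0.27 (SE 0.05) and -0.26 (SE 0.04), with adjusted p = 0.0197 and 0.0164 by the paired edgeR test with Benjamini-Hochberg adjustment. In AhRfl/fl culture 2 they fell by 2.47% and 3.47%, the smallest changes of the 6. In Sftpc-Cre;AhRfl/fl cells the 3 CRE libraries of each gene lay below the 3 PBS libraries. The annotated genes overlap head to head, and whether the counting used the strand of the libraries is not given in the sources used here. Reads from the 22 shared bases may therefore have gone to either gene.

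Among the matricellular proteins, which sit in the matrix and act on cells, Sparc changed most. It was 519, 585 and 617 CPM with PBS and 334, 332 and 407 CPM with CRE in AhRfl/fl cells, without overlap. The Sftpc-Cre;AhRfl/fl libraries had 470.5, 803 and 570.0 CPM with PBS and 328, 527 and 379 CPM with CRE, where culture 2 with CRE reached into the PBS range. The fall was 30.3% to 43.2% in the 6 cultures, with a paired log2 fold change of -0.63 (SE 0.03, edgeR, Benjamini-Hochberg adjusted p = 2.46e-04 with pairs and 0.0846 without). Within each genotype Sparc was called with pairs, at -0.68 (SE 0.05, edgeR, Benjamini-Hochberg adjusted p = 0.00182) in AhRfl/fl and -0.57 (SE 0.05, adjusted p = 0.00322) in Sftpc-Cre;AhRfl/fl cells. These calls remained without any 1 pair of the genotype, with an adjusted p of at most 0.0418.

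Tnc, the gene of tenascin C, an anti-adhesive protein of injured and developing lung, also fell in 6 of 6 cultures, with a paired log2 fold change of -0.37 (SE 0.05, edgeR, Benjamini-Hochberg adjusted p = 0.00985). Its level differed more between cultures than with CRE, at 146, 43.5 and 118 CPM in AhRfl/fl cells with PBS. Thbs1 was higher with CRE in 3 cultures and lower in 3, with a paired log2 fold change of 0.03 (SE 0.07). Tgfbi, a protein induced by TGF-beta, was higher in 5 of 6 at a log2 fold change of 0.14 (SE 0.06), and Postn was lower in 5 of 6 at -0.42 (SE 0.17), and neither passed the test.

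Of the 5 integrin chains 0 were called with CRE by edgeR in either fit. DESeq2 called 1, Itgav, in AhRfl/fl cells without pairs and with them (adjusted p = 0.00682 with pairs), and with pairs also averaged over genotypes (adjusted p = 0.0389). Itgav was 70.1, 59.8 and 66.5 CPM with PBS and 80.7, 99.3 and 88.2 CPM with CRE in AhRfl/fl cells, without overlap. Its values in Sftpc-Cre;AhRfl/fl cells were 80.6, 84.1 and 71.4 CPM with PBS and 85.6, 72.5 and 89.0 CPM with CRE, which overlapped. The log2 fold changes were 0.45 (SE 0.11) and 0.07 (SE 0.11) in the fit without pairs. Their difference of -0.38 (SE 0.15) had an unadjusted p of 0.0278 in edgeR, the smallest of the 38 members, and an adjusted p of 1.00. Itgb6, the partner of Itgav, and Itgb4, a chain of the hemidesmosome receptor, were higher in 6 of 6 cultures, at 0.10 (SE 0.04) and 0.09 (SE 0.03) on the log2 scale with pairs, and neither passed the test (edgeR, Benjamini-Hochberg adjusted p = 0.203 and 0.152).

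The genes of matrix remodelling went both ways. Plaur was 256, 252 and 240.1 CPM with PBS and 304, 325 and 299.9 CPM with CRE in AhRfl/fl cells. The values in Sftpc-Cre;AhRfl/fl cells were 215, 222 and 218 CPM with PBS and 269, 268 and 317 CPM with CRE. In both genotypes all CRE libraries lay above all PBS libraries, and the change was 18.7% to 45.1% in the 6 cultures. Averaged over genotypes the log2 fold change was 0.35 (SE 0.05, edgeR, Benjamini-Hochberg adjusted p = 0.0088) without pairs and 0.34 (SE 0.04, adjusted p = 0.00442) with them. The call held without any 1 library, at an adjusted p of at most 0.0374.

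Timp3, an inhibitor of matrix metalloproteinases that is bound to the matrix, was 338, 403 and 409.7 CPM with PBS and 269, 326 and 331 CPM with CRE in AhRfl/fl cells, without overlap. The Sftpc-Cre;AhRfl/fl libraries were at 434, 559 and 451 CPM with PBS and 389, 421 and 388 CPM with CRE, also without overlap. It fell by 10.5% to 24.7% in the 6 cultures, with a paired log2 fold change of -0.29 (SE 0.04, edgeR, Benjamini-Hochberg adjusted p = 0.00545). Timp3 overlaps the gene Syn3 on the opposite strand, so reads of the overlap may have gone to either gene. Other members, among them Fn1, Lamb3, Timp1, Tagln and Thbs1, also overlap annotated genes on the opposite strand. Timp1, the soluble inhibitor, and Mmp14, a metalloproteinase of the cell membrane, were lower in 6 of 6 cultures at -0.25 (SE 0.06) and -0.14 (SE 0.04) on the log2 scale, and neither passed (edgeR with pairs, Benjamini-Hochberg adjusted p = 0.0701 and 0.0779), while DESeq2 with pairs called both.

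Lox, the lysyl oxidase that cross-links collagen, was 23.7, 18.5 and 34.8 CPM with PBS and 29.6, 25.5 and 40.7 CPM with CRE in AhRfl/fl cells. Sftpc-Cre;AhRfl/fl cells had 38.1, 50.4 and 33.7 CPM with PBS and 43.4, 50.2 and 37.9 CPM with CRE. It was higher in 5 of 6 cultures, and the groups overlapped in both genotypes. The paired log2 fold change was 0.23 (SE 0.05, edgeR, Benjamini-Hochberg adjusted p = 0.0462). Without any 1 of the 6 pairs Lox was no longer called, at an adjusted p of 0.0689 to 0.158. Loxl2, a related oxidase, was higher in 5 of 6 cultures at a log2 fold change of 0.18 (SE 0.09), and Mmp2, the gelatinase of mesenchymal cells, was higher in 3 and lower in 3, and neither passed the test.

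Of the 9 transition factors and mesenchymal proteins, edgeR called 0 with CRE in either fit. Vim was lower in 3 of 3 AhRfl/fl cultures, with a paired log2 fold change of -0.45 (SE 0.09, edgeR, Benjamini-Hochberg adjusted p = 0.0525). DESeq2 with pairs called Vim in AhRfl/fl cells (adjusted p = 2.18e-04) and averaged over genotypes (adjusted p = 0.0318), and limma-trend with pairs called it in AhRfl/fl cells. In Sftpc-Cre;AhRfl/fl cells the edgeR value was 0.04 (SE 0.09, adjusted p = 0.901). The difference between genotypes was 0.49 (SE 0.13) with an unadjusted p of 0.00744 and an adjusted p of 0.494 in edgeR with pairs. Tagln was lower in 6 of 6 cultures at a log2 fold change of -0.15 (SE 0.06) and Acta2 in 5 of 6 at -0.10 (SE 0.05), and neither passed the test. The values of the factors were 0.07 (SE 0.08) for Snai1, 0.31 (SE 0.27) for Snai2, -0.24 (SE 0.20) for Twist1, 0.07 (SE 0.09) for Zeb1 and 0.08 (SE 0.11) for Zeb2.

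**Figure D4:**
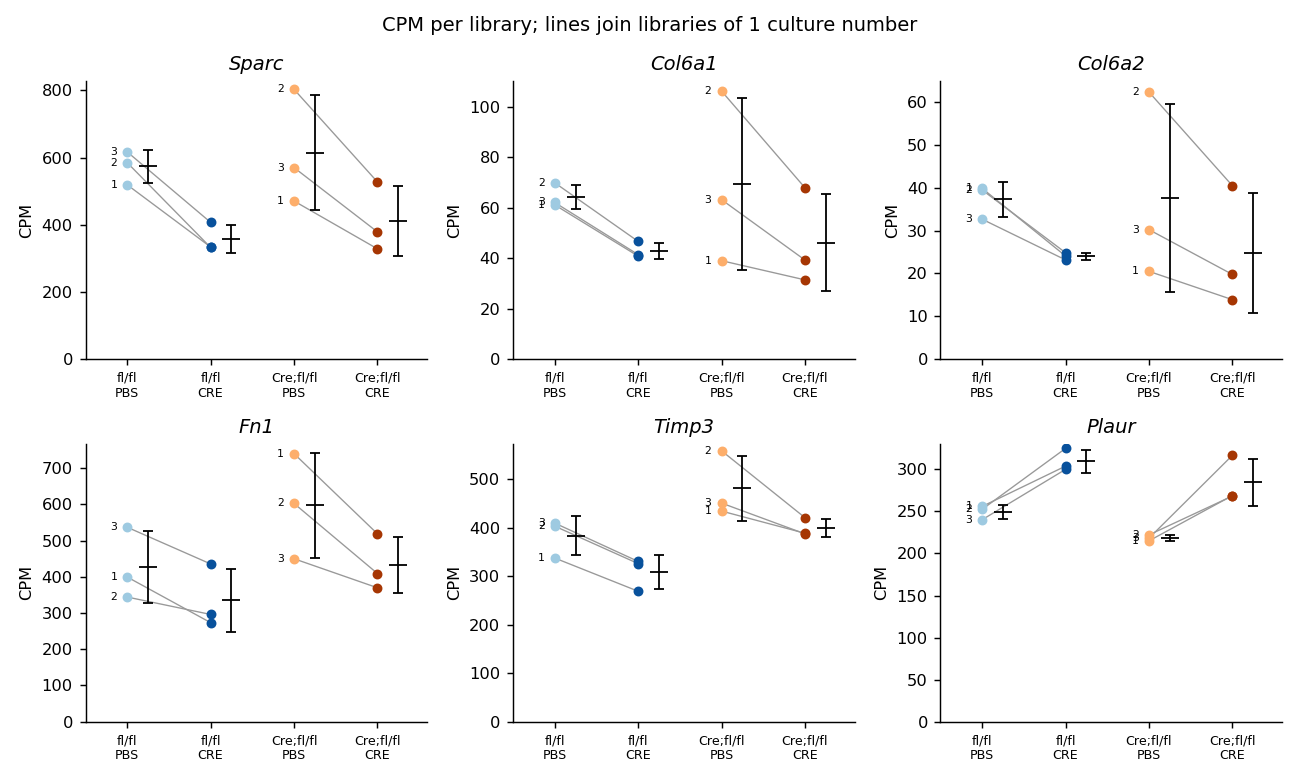
CPM of Sparc, Col6a1, Col6a2, Fn1, Timp3 and Plaur in each library, with lines joining the PBS and CRE libraries of 1 culture and black marks for the mean and SD of 3. The lines of the first 5 genes go down in 6 of 6 cultures and those of Plaur go up.

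Not each paired call was equally firm. In the fit averaged over genotypes, Fn1, Col1a2, Col6a1, Col6a2, Tnc, Sparc, Timp3 and Plaur were called in each of the 8 paired alternatives, which left out each pair in turn or used limma-trend or DESeq2. Col1a1 and Lamb3 were not called without any 1 of the 6 pairs, at an adjusted p of 0.0551 to 0.151 and 0.0802 to 0.118. Col3a1 was lost without culture 1 or 2 of Sftpc-Cre;AhRfl/fl cells (adjusted p = 0.0524 and 0.0682, edgeR), Col4a2 without culture 2 or 3 (0.0651 and 0.0677) and Lama3 without AhRfl/fl culture 3 (0.0524). Col4a1 was lost without AhRfl/fl culture 3 (0.0693) or Sftpc-Cre;AhRfl/fl culture 2 or 3 (0.0702 and 0.0703). DESeq2 with the same pairs called 13 of 37 members with an adjusted p in AhRfl/fl cells (35.1%), 13 of 38 in Sftpc-Cre;AhRfl/fl cells (34.2%) and 19 of 38 averaged (50.0%), beside 10.9%, 6.6% and 12.7% of all genes. Within a genotype, leaving out 1 pair left 1 to 2 of 6 members called in AhRfl/fl cells and 1 to 3 of 8 in Sftpc-Cre;AhRfl/fl cells.

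Whether the change with CRE differed between genotypes was tested as an interaction. edgeR called 0 of the 38 members and 0.0% of all genes, with 1 member (Itgav) at an unadjusted p under 0.05 without pairs and 2 with pairs. DESeq2 and limma-trend with Benjamini-Hochberg adjustment also called 0 members, beside 0.139% and 0.0% of all genes. The smallest adjusted p of a member was 1.00 without pairs and 0.494 with pairs in edgeR. The gene lists called within each genotype therefore do not show a difference between genotypes.

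The second comparison asked how the members' levels differed between Sftpc-Cre;AhRfl/fl and AhRfl/fl cells under the same treatment. The genotypes differ in the Sftpc-Cre allele as well as in AhR, and the effects of these cannot be told apart here. Col4a1, Col4a2 and Postn were lower in Sftpc-Cre;AhRfl/fl than in AhRfl/fl cells with PBS and with CRE, without overlap of the groups. Timp3 and Itga3 were higher without overlap. The share of all genes without overlap under both treatments was not counted, so whether these members stand out from all genes in this is not known. With PBS the groups did not overlap for 4 members that were lower (10.5%, Col4a1, Col4a2, Postn and Plaur) and 4 that were higher (10.5%, Lama5, Itgav, Itga3 and Timp3), where 7.38% and 6.6% of all genes did so. With CRE they did not overlap for 4 lower members (10.5%, Col4a1, Col4a2, Thbs1 and Postn) and 2 higher ones (5.26%, Itga3 and Timp3), beside 5.43% and 5.56% of all genes.

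With PBS, edgeR with Benjamini-Hochberg adjustment called 0 members, 9 had an unadjusted p under 0.05, and 0.15% of all genes were called. With CRE it called 0 members, 6 had an unadjusted p under 0.05, and 0.17% of all genes were called. DESeq2 called 1 member with PBS (2.63%, Col4a1), beside 1.23% of all genes, and 4 with CRE (10.5%, Postn, Col4a1, Col4a2 and Thbs1), beside 0.832%. limma-trend with adjustment called 0 and 1 (Col4a1), beside 0.175% and 0.184% of all genes. The study's rule called Postn and Lox with PBS, beside 4.1% of all genes, and Col4a1, Col4a2 and Postn with CRE, beside 3.42%. Averaged over treatments, edgeR called 3 members (7.89%), Col4a1, Col4a2 and Postn, and 0.631% of all genes. limma-trend called the same 3 and 0.64% of all genes.

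The averaged test counts the CRE and PBS libraries of 1 culture as independent. With both summed, 3 sums against 3, edgeR called 0 members, 8 had an unadjusted p under 0.05, and 0.0805% of all genes were called. The members that edgeR called in the averaged test are therefore given with both values.

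Col4a1 was 729.7, 769 and 806 CPM in AhRfl/fl and 569, 561 and 623 CPM in Sftpc-Cre;AhRfl/fl cells with PBS. With CRE it was 574, 749.6 and 718 CPM and 476, 446 and 443 CPM. The averaged log2 difference was -0.49 (SE 0.07, edgeR, Benjamini-Hochberg adjusted p = 0.0094), and over the sums it was -0.48 (SE 0.08, adjusted p = 0.249). Of 19 alternatives, 18 kept the call, and the sums did not.

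Col4a2 followed its neighbour, at 492, 516 and 525 CPM against 346, 435 and 396 CPM with PBS and at 378, 498 and 482 CPM against 277, 339.6 and 312 CPM with CRE. The averaged log2 difference was -0.46 (SE 0.08, edgeR, Benjamini-Hochberg adjusted p = 0.0408, and 0.571 over the sums). It was not called without 9 of the 12 libraries, left out singly, at an adjusted p of 0.0749 to 0.115. Lama3, Lamb3 and Lama5, the laminin genes of the same membrane, differed by -0.11 (SE 0.17), -0.06 (SE 0.10) and 0.20 (SE 0.09) and did not pass the test.

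Postn, whose protein binds collagen and is raised in allergic airways, was 2.83, 2.02 and 2.05 CPM in AhRfl/fl and 1.24, 1.06 and 0.800 CPM in Sftpc-Cre;AhRfl/fl cells with PBS. With CRE it was 2.25, 1.25 and 2.28 CPM and 0.990, 0.560 and 0.603 CPM. It was the lowest member in level and had the largest fold difference of the 38, with an averaged log2 difference of -1.29 (SE 0.24, edgeR, Benjamini-Hochberg adjusted p = 0.041, and 0.518 over the sums). It was not called without 10 of the 12 libraries, left out singly, at an adjusted p of 0.0814 to 0.116.

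Timp3, Itga3, Thbs1 and Lox did not pass edgeR's adjusted test. Timp3 was higher in Sftpc-Cre;AhRfl/fl cells by an averaged log2 difference of 0.35 (SE 0.08, adjusted p = 0.132) and Itga3, the integrin chain that binds laminin 332, by 0.27 (SE 0.07, adjusted p = 0.157). Thbs1 differed by -0.33 (SE 0.08, adjusted p = 0.157), with 1069, 1127 and 1151 CPM against 876, 709 and 859.9 CPM with CRE and overlapping groups with PBS. Lox differed by 0.56 (SE 0.18, adjusted p = 0.276), and its groups overlapped under both treatments. DESeq2 with its own Benjamini-Hochberg adjustment called these 4 genes in the averaged comparison, besides the 3 called by edgeR, and these 7 of 38 (18.4%) stood beside 2.94% of all genes. This DESeq2 test also counts the CRE and PBS libraries of 1 culture as independent, and over the sums edgeR called 0 members.

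**Figure D5:**
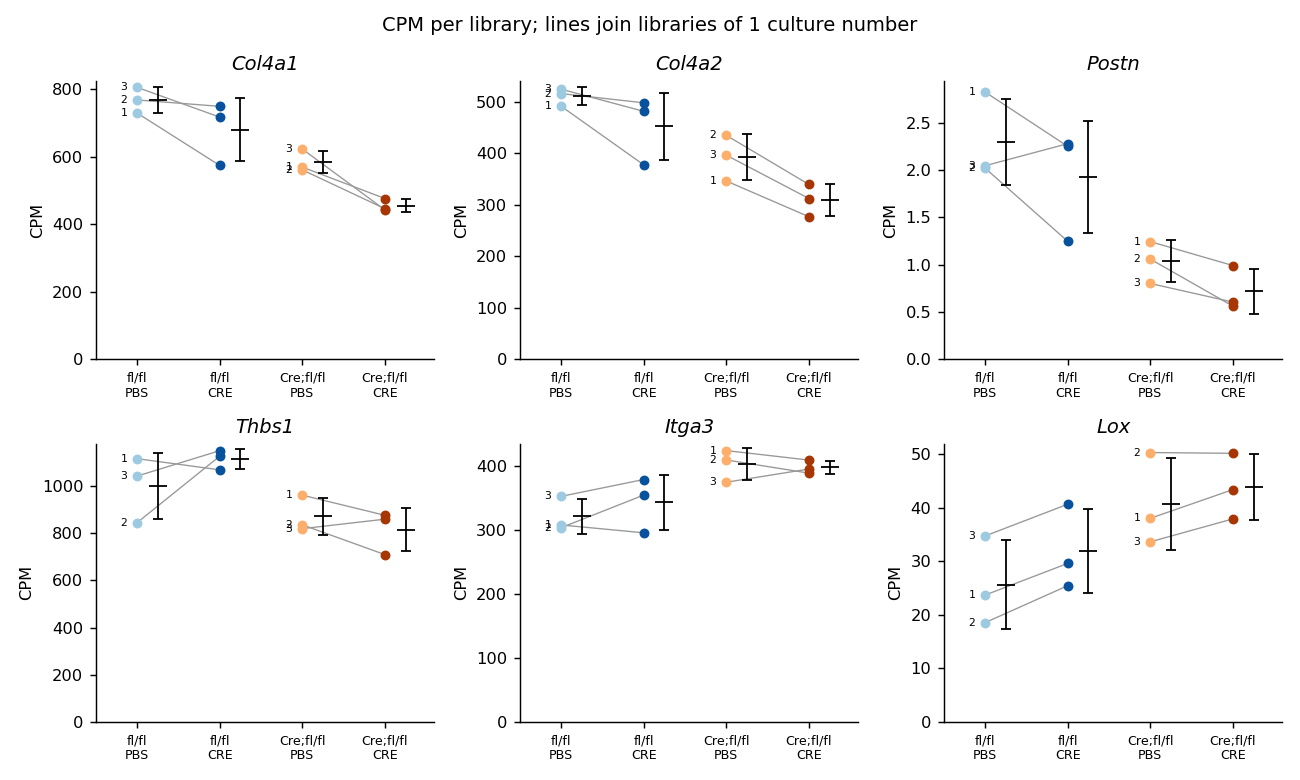
CPM of Col4a1, Col4a2, Postn, Thbs1, Itga3 and Lox in each library, with lines joining the PBS and CRE libraries of 1 culture and black marks for the mean and SD of 3. Col4a1, Col4a2 and Postn lie lower and Itga3 higher in Sftpc-Cre;AhRfl/fl cells under both treatments, and the groups of Lox overlap.

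For the collagens and transition genes that followed the cultures, the groups of the genotypes overlapped widely. The averaged log2 difference was 0.28 (SE 0.45) for Col1a2, 0.01 (SE 0.34) for Col1a1, 0.03 (SE 0.31) for Vim and 0.21 (SE 0.46) for Cdh2. Fn1 was 0.43 (SE 0.17) higher, with an unadjusted p of 0.0284 and an adjusted p of 0.414 in edgeR.

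Beyond the 38 members, 110 of 114 further genes of the same pathways were tested. With pairs and averaged over genotypes, edgeR with Benjamini-Hochberg adjustment called 22 of them lower with CRE, beside 3.11% of all genes, and 8 higher (7.27%), beside 3.47%. In 6 of 6 cultures 28 were lower (25.5%), beside 6.79% of all genes, and 13 were higher (11.8%), beside 7.57%. Those called lower included Ccn1 and Ccn2, matricellular targets of mechanical signalling, Hspg2, the basement membrane proteoglycan perlecan, and Timp2. Of these, Hspg2 was less even, lower with CRE in 4 cultures and higher in 2, both of AhRfl/fl cells. Within genotypes, edgeR with pairs called Hspg2 lower in Sftpc-Cre;AhRfl/fl cells and not in AhRfl/fl cells. Those called higher included Plau and Plat, the plasminogen activators urokinase, which is the ligand of the Plaur receptor, and tissue plasminogen activator.

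Without pairs edgeR called 4 of the 110 in any comparison, where single comparisons called 0.0% to 1.1% of all genes. Col12a1, a collagen on fibril surfaces, was lower with CRE by a log2 fold change of -0.70 (SE 0.09, edgeR, Benjamini-Hochberg adjusted p = 0.00894) in Sftpc-Cre;AhRfl/fl cells and -0.25 (SE 0.09, adjusted p = 0.397) in AhRfl/fl cells. It was also called lower in Sftpc-Cre;AhRfl/fl than in AhRfl/fl cells with CRE (means 56.7 and 83.9 CPM) and averaged over treatments, but not over the sums. Col7a1, the collagen of anchoring fibrils, was lower by -1.25 (SE 0.20, adjusted p = 0.0278) in Sftpc-Cre;AhRfl/fl and -0.42 (SE 0.19, adjusted p = 0.543) in AhRfl/fl cells. The interaction of neither passed the test, at an adjusted p of 1.00. Col4a3, a further type IV collagen chain, was higher in Sftpc-Cre;AhRfl/fl cells by 1.00 (SE 0.17, adjusted p = 0.0246 and 0.420 over the sums), opposite in sign to Col4a1. Tgm2, a transglutaminase that cross-links matrix, was higher by 0.44 (SE 0.06, adjusted p = 0.00798 and 0.327 over the sums).

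Of the further genes, the 5 highest in level were Cdh1 (337 FPKM), Ccn1 (252 FPKM), Cnn2 (202 FPKM), Itgb1 (176 FPKM) and Tpm1 (138 FPKM). Ccn1 and Cnn2, an actin-binding calponin, both fell with CRE by log2 fold changes of -0.21 (SE 0.03, edgeR with pairs, Benjamini-Hochberg adjusted p = 0.00653 and 0.00584). Cdh1, Itgb1, the common beta chain of the collagen and laminin integrins, and Tpm1, a tropomyosin, had values of 0.06 (SE 0.02), 0.02 (SE 0.03) and 0.05 (SE 0.02) and did not pass the test.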

How the data were processed

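RNA-seq libraries of isolated mouse AT2 cells were analysed from the deposited gene counts and FPKM values, both made by the authors. Per the labels' processing notes the tools were STAR 2.7.2b, Partek and Salmon, and whether counting used the strand is not given in the sources used here. The deposited counts are whole numbers and were tested as they stand, and the authors' FPKM values served for levels and 1 alternative. Genes were kept by edgeR's filter at a minimum count of 10 (20612 of 55450), scaled by TMM, and tested with the quasi-likelihood test over 4 group means in 12 libraries (edgeR 4.0.16, limma 3.58.1, DESeq2 1.42.0, R 4.3.3), with Benjamini-Hochberg adjustment at 0.05 over all genes. The study's rule used limma-trend after a log2 transform of CPM, prior count 2. CPM values are counts scaled to library size by TMM, and the scripts were tested on simulated data.

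The CRE and PBS libraries of 1 number within a genotype were treated as pairs. Over 12997 genes the correlations of their deviations from the group means were 0.746, 0.378 and 0.685 in AhRfl/fl and 0.588, 0.526 and 0.377 in Sftpc-Cre;AhRfl/fl cells. This pairing comes from the data, since the labels give a number only.

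The members and lists were chosen with earlier results of these data known. All 38 members are named, with those of 110 further pathway genes called by edgeR without pairs and, as fewer than 5 were called, the 5 highest in FPKM. Genes of the further list called with pairs, the pattern of culture 2, the summed counts and the alternatives of the paired fit were chosen after seeing the data.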

Additional observations from a re-analysis of the deposited data

How the results depend on the processing

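Counts of members called depended on the tool and on the pairs. Without pairs, DESeq2 called 3, 2 and 4 members for CRE in AhRfl/fl cells, in Sftpc-Cre;AhRfl/fl cells and averaged, where edgeR called 0, 0 and 1, and it called 1, 4 and 7 for the genotype with PBS, with CRE and averaged, where edgeR called 0, 0 and 3. The replicate block (pairing by number) gave 6, 8 and 15 for CRE and 0, 2 and 4 for the genotype, although between genotypes the libraries share only a number (correlations of deviations of 0.470, 0.108 and 0.165 with PBS and 0.412, -0.0114 and 0.0758 with CRE). For the genotype with CRE, limma-trend and a filter of 1 CPM in 3 libraries gave 1 each. For the averaged genotype difference, no filter gave 1 and the summed counts 0. Leaving out single libraries gave 1 to 2 for averaged CRE, 0 to 1 for the genotype with CRE and 1 to 3 for the averaged genotype. With pairs, DESeq2 called 13 in each genotype, only the 3 pairs of 1 genotype gave 2 and 3, leaving out pairs 1, 2 and 3 gave 2, 1 and 2 in AhRfl/fl and 3, 1 and 1 in Sftpc-Cre;AhRfl/fl cells, and the averaged count was 9 without Sftpc-Cre;AhRfl/fl pair 2. By the study's rule, log2(FPKM + 1) gave 1 for CRE in Sftpc-Cre;AhRfl/fl cells and 1 for the genotype with PBS, and leaving out libraries gave 1 to 2, 0 to 3, 1 to 4 and 1 to 4 for the 4 comparisons (CRE in AhRfl/fl, CRE in Sftpc-Cre;AhRfl/fl, genotype with PBS, genotype with CRE). The cause of these changes was not tested. Sparc was called for averaged CRE without pairs when Sftpc-Cre;AhRfl/fl CRE replicate 2 was left out (adjusted p = 0.0376), and Col4a1 for the genotype with CRE when AhRfl/fl CRE replicate 1 was left out (adjusted p = 0.00544). No member reversed its direction among called values. Alternatives of the paired fit and the summed counts were chosen after seeing the data. For Col1a2, a member with a wide spread between cultures, the SE of the CRE log2 fold change averaged over genotypes was 0.45 without pairs and 0.05 with pairs.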
